A study of Mus musculus with 21 samples.

Results

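The genes described here are 38 mouse genes of DNA replication and nucleotide supply, taken from a written list by matching each symbol to its row in the count table. All 38 were found among 47069 gene identifiers, they lie on 14 chromosomes, and all passed the filter on low counts. They were followed in macrophages that were raised with the growth factor M-CSF out of marrow cells from C57BL/6 mice, wild type and 8 to 10 weeks old. The groups were IL_TNF (IL4, IL13 and TNF together), IL (IL4 with IL13) and TNF alone, each sampled after 6 h and after 24 h with every cytokine at 10 ng/ml, and untreated cells at 0 h (Ctrl_0h). Each of the 7 groups had 3 libraries, 21 in all. Nothing in the labels tells if replicate libraries are separate cultures or animals, and p values then measure only the spread between libraries, which may be technical. The untreated cells were sampled at 0 h only, so every comparison with Ctrl_0h also carries the time in culture.

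Before S phase, the helicase ring of the Mcm2 to Mcm7 proteins is loaded onto origins by Cdc6 and Cdt1, and Mcm10, Cdc45 and the GINS complex turn it into a working fork. Primase and the polymerases then copy the strands, the Pcna clamp holds them to DNA, and ribonucleotide reductase, thymidylate synthase and thymidine kinase supply the deoxynucleotides. Most of these genes are transcribed as cells pass from G1 to S phase under E2F factors. Macrophages grown with M-CSF divide in culture, and cells that leave the cycle carry little of this RNA.

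The libraries held 28.1 to 48.7 M counts (M, 1e6). Levels are given as CPM, that is counts per 1e6 counts of the TMM-scaled library total, and they are not divided by gene length. For the macrophage label, 8 macrophage markers summed to between 13458 and 44148 CPM in a library with none at 0, while marker lists of granulocytes and progenitors, B cells, erythroid cells, fibroblasts and T and NK cells each summed to at most 13.9, 10.1, 5.85, 11.7 and 1.22 CPM, with 1 of 5 erythroid markers at 0 throughout. Ctrl_0h replicate 2 and IL_TNF_24h replicate 1 stood apart from their groups for the genes described here. In Ctrl_0h replicate 2, 31 of 38 genes were lower than in both other libraries, from 36.1% of their mean for Fen1 to 119% for Tyms. That library also had a count for 27761 genes, against 16996 to 20631 in the other libraries. Its sums of progenitor, B cell and erythroid markers were the highest. The fits were repeated without it, and some of those counts and calls are given below. Whether other cells in it altered the levels was not tested. In IL_TNF_24h replicate 1, 36 of 38 were lower than in replicates 2 and 3, all but Rfc3 and Tyms. Values ran from 5.38% of the mean of both for Rrm2 to 110.2% for Tyms, and 32 genes were nearer to the IL_TNF_6h mean. How many of all genes were lower in either library was not counted, so the shift may not be particular to the 38. Genes outside the 38 also split the libraries: Xist was at or below 0.152 CPM in the 6 libraries of IL_TNF_24h and IL_24h and at or above 141.9 CPM in the other 15, the Y-linked gene Ddx3y had at least 1515 counts in those 6 and 0 in the other 15, and Ifi202b had at least 1270 counts in each library of IL_TNF_6h and IL_6h and 0 elsewhere. By Xist and Ddx3y those 6 libraries read as male and the other 15 as female, so they come from different mice. The libraries with Ifi202b may also come from other mice. Sets of libraries are therefore crossed by comparisons of IL groups with Ctrl_0h or with TNF groups. They are also crossed by 24 h against 6 h under IL or IL_TNF, where libraries of unlike sex are compared. The set cannot be told apart from the treatment or the time there. TNF against Ctrl_0h, TNF_24h against TNF_6h and IL_TNF against IL at one time stay within sets.

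RefSeq promoter windows, from 250 bases before to 50 bases after the start of transcription, were found for 32 of the 38 genes and not for Mcm4, Gins1, Gins2, Prim2, Pole and Exo1. E2F-type words (TTTCCCGC, TTTCGCGC, TTTGCCGC or TTTGGCGC on either strand, overlapping matches counted) stood in the windows of 14 of these 32 genes (43.8%), against 704 of 27025 genes in the table (2.6%). At least 2 matches were found for 5 of the 32 genes, against 0.107% of all genes. CCAAT on either strand was in 18 of 32 (56.2%), against 41.1% of all genes, and the word TTTGAA, the core of the cell cycle element CHR, was in 3 of 32 (9.38%), against 20.2%. A match is a string of letters in a window and not a site shown to be bound. The 5 stretches printed here, 150 bases before to 30 bases after the start in RefSeq on GRCm38.p6, belong to genes with unlike courses, chosen after their values were seen. Rrm2 fell furthest under IL_TNF and IL. Cdc6 was called higher at 24 h than at 6 h under IL and not under TNF. Mcm10 and Rfc3 were near the untreated level in TNF_24h. Cdt1 was not called higher at 24 h than at 6 h in any treatment. Capitals mark E2F-type words.
Rrm2 (chr12:24708104-24708283, plus strand): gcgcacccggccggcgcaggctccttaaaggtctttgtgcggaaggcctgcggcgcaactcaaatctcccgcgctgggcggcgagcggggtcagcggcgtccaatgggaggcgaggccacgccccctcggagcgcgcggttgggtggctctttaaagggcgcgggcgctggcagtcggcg
Cdc6 (chr11:98908001-98908180, plus strand): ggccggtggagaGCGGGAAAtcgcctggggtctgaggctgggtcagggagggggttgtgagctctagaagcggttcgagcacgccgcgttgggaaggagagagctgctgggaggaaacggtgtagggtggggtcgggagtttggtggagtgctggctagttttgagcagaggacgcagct
Mcm10 (chr2:5012762-5012941, minus strand): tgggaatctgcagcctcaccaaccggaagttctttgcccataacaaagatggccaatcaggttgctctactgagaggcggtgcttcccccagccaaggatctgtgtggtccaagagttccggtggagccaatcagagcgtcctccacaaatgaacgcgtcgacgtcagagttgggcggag
Rfc3 (chr5:151651179-151651358, minus strand): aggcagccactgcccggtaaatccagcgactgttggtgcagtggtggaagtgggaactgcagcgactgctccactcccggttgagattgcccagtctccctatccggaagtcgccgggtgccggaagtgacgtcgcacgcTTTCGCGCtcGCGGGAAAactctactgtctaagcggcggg
Cdt1 (chr8:122567865-122568044, plus strand): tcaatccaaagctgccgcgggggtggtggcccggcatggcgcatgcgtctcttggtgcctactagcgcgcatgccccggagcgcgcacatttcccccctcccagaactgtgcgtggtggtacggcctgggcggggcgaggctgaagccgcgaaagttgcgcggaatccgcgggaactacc
The Rfc3 stretch holds a pair of these words around the start, and the Cdc6 stretch holds 1. No such word stands in the stretches of Rrm2, Mcm10 and Cdt1, and nothing follows from that about the factor. The window of Cdt1 does hold 1 such word, just past the end of its printed stretch, and is among the 14.

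The whole set fell within 6 h under every cytokine. The 38 genes summed to 518, 484 and 479 CPM in the 3 libraries of IL_TNF_6h, 644, 588 and 612 CPM in IL_6h and 809, 830.4 and 798 CPM in TNF_6h, against 3898, 3327 and 4038 CPM in Ctrl_0h. The group means were 13.2%, 16.4% and 21.6% of the Ctrl_0h mean, and every treated library lay far below every untreated one. In cells measured in bulk, fewer cells in S phase and less RNA per such cell cannot be told apart. By the quasi-likelihood test of edgeR with Benjamini-Hochberg adjustment over 15581 genes and a threshold of 0.05, all 38 were lower in IL_TNF_6h (33.4% of all genes tested were called lower), 37 in IL_6h (31.6% of all genes) and 38 in TNF_6h (20.5% of all genes). None was higher, where 33.8%, 32.8% and 18.8% of all genes were called higher. The median log2 fold change of the 38 was -3.25 in IL_TNF_6h, -2.96 in IL_6h and -2.47 in TNF_6h, beside -0.03, -0.01 and -0.04 for all genes. The gene not called in IL_6h was Fen1, which was called once Ctrl_0h replicate 2 was left out (log2 fold change -0.69, adjusted p 0.0312).

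**Figure D1:**
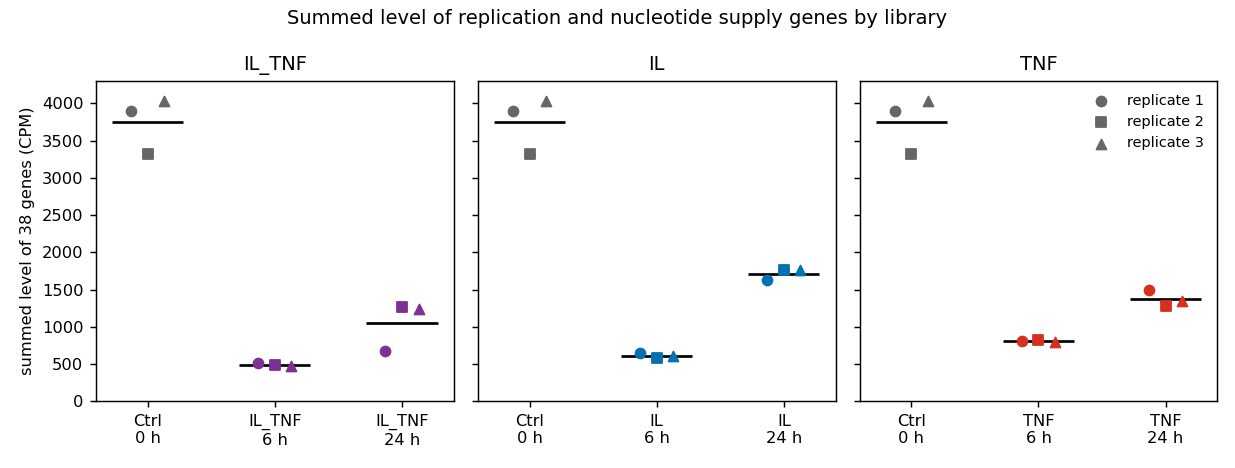
Summed level of the 38 genes in CPM (vertical axis) in each library at 0, 6 and 24 h, with 1 panel for each cytokine treatment. Points are libraries, marker shapes are replicates 1 to 3 and lines are means of 3. All 6 h libraries lie between 479 and 830.4 CPM and all Ctrl_0h libraries at or above 3327 CPM, and replicate 1 of IL_TNF_24h lies at 671.5 CPM, below the other 2.

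By 24 h the summed level lay between the 6 h and the untreated levels. Under IL and IL_TNF the 6 h and 24 h libraries are of unlike sex. Time and library set therefore cannot be told apart there, for the set or for any gene described below. TNF_24h against TNF_6h stays within a set. The sum was 672, 1261 and 1239.8 CPM in IL_TNF_24h, 1624, 1761 and 1764 CPM in IL_24h and 1492, 1277 and 1352 CPM in TNF_24h, that is 28.2%, 45.7% and 36.6% of the Ctrl_0h mean, and 33.3% for IL_TNF_24h without its replicate 1. No 24 h library reached the level of any untreated one. Pcna made up 25.1%, 31.0% and 21.3% of the sum in these 24 h groups, against 17.6% in Ctrl_0h. Against 6 h of the same treatment, 33 of 38 genes were higher in IL_TNF_24h (15.4% of all genes were called higher), 35 in IL_24h (12.2% of all genes) and 26 in TNF_24h (12.7% of all genes), and 1 gene, Cdt1, was lower in TNF_24h (10.9% of all genes were called lower). The count of 27 calls under TNF was 16 without TNF_6h replicate 1. Median log2 fold changes of 24 h over 6 h were 1.14 under IL_TNF, 1.48 under IL and 0.84 under TNF, beside -0.01, -0.03 and 0.01 for all genes. Against Ctrl_0h, 37 genes were still lower in IL_TNF_24h (32.3% of all genes), 29 in IL_24h (32.6% of all genes) and 35 in TNF_24h (24.4% of all genes), and none was higher (33.0%, 31.7% and 20.9% of all genes). Without IL_TNF_24h replicate 1, 35 were lower in IL_TNF_24h, with Pola1 and Blm no longer called, and without Ctrl_0h replicate 2 the counts were 37, 30 and 36.

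**Figure D2:**
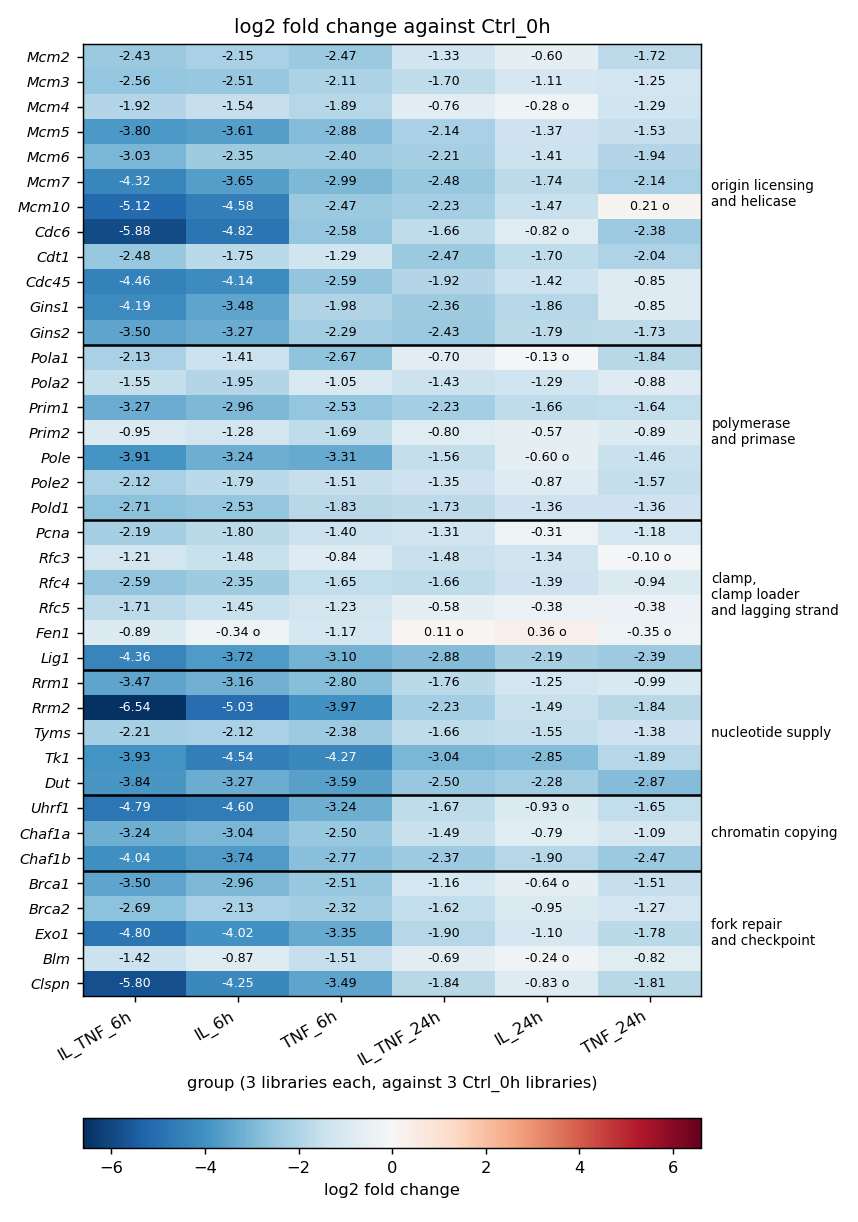
Log2 fold change of each of the 38 genes (rows, grouped by role) against Ctrl_0h in the 6 treated groups (columns), with the value printed in each cell and o after a value that did not pass the threshold. Columns at 6 h are darker blue than those at 24 h in nearly every row, and Mcm10 and Rfc3 under TNF_24h are near 0 with values of 0.21 and -0.10.

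Among the 12 origin licensing and helicase genes, all fell at 6 h under each treatment, to medians of 8.01% of the Ctrl_0h mean in IL_TNF_6h, 9.66% in IL_6h and 18.5% in TNF_6h. Mcm6 and Mcm5, parts of the helicase ring, had the highest CPM of the group. Mcm6 had 34.1, 28.3 and 33.8 CPM in the libraries of IL_TNF_6h, 51.2, 55.8 and 46.5 CPM in IL_6h and 48.7, 51.2 and 48.1 CPM in TNF_6h, against 267, 243 and 273 CPM in Ctrl_0h, with log2 fold changes of -3.03 ± 0.19, -2.35 ± 0.18 and -2.40 ± 0.18 (standard error). Mcm5 had 17.3, 16.2 and 15.4 CPM in IL_TNF_6h, 20.8, 13.7 and 21.3 CPM in IL_6h and 28.8, 32.2 and 31.7 CPM in TNF_6h, against 238, 189 and 255 CPM in Ctrl_0h, and log2 fold changes of -3.80 ± 0.32, -3.61 ± 0.32 and -2.88 ± 0.31. Every library of the 6 h groups was far below every untreated library for both genes. By 24 h the role's median was 22.2% of Ctrl_0h in IL_TNF_24h (Mcm7 lowest, Mcm4 highest), 37.4% in IL_24h (Gins1 lowest, Mcm4 highest) and 32.5% in TNF_24h (Cdc6 lowest, Mcm10 highest). Mcm6 stood at 21.7% of Ctrl_0h in IL_TNF_24h, 37.6% in IL_24h and 26.1% in TNF_24h, and Mcm5 at 22.7%, 38.8% and 34.6%. The ring genes did not come back by one amount: in IL_24h Mcm4 was at 82.3% of Ctrl_0h and did not pass the test against it (log2 fold change -0.28 ± 0.21, adjusted p 0.249 by edgeR), while Mcm7 was at 30.04% and did (log2 fold change -1.74 ± 0.31).

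Cdc6 and Cdt1, the loaders of the ring, took different courses. Cdc6 had 0.484, 0.0973 and 0.408 CPM in IL_TNF_6h, 0.839, 0.754 and 0.431 CPM in IL_6h and 3.72, 3.55 and 2.44 CPM in TNF_6h, against 22.4, 14.6 and 21.01 CPM in Ctrl_0h, and its lowest library rested on 4 counts. After 24 h Cdc6 had 0.676, 9.04 and 8.63 CPM in IL_TNF_24h, 10.4, 10.5 and 11.97 CPM in IL_24h and 3.56, 3.99 and 3.58 CPM in TNF_24h. Its change from 6 h to 24 h was the largest of the 38 under IL, with a log2 fold change of 3.998 ± 0.60 for IL_24h over IL_6h, whereas TNF_24h over TNF_6h gave 0.19 ± 0.53 (adjusted p 0.845 by edgeR) and the libraries of the 2 times overlapped. Under IL_TNF the change was 4.23 ± 0.65, with replicate 1 still near the 6 h level. Cdt1 had 21.2, 32.7 and 22.3 CPM in IL_TNF_24h and 28.5, 25.8 and 21.3 CPM in IL_TNF_6h, 46.3, 45.5 and 38.3 CPM in IL_24h and 51.8, 36.6 and 36.5 CPM in IL_6h, and 36.4, 32.98 and 33.2 CPM in TNF_24h and 64.0, 55.1 and 52.9 CPM in TNF_6h, against 146, 119.7 and 156 CPM in Ctrl_0h. It was lower at 24 h than at 6 h under TNF in every library (log2 fold change -0.74 ± 0.17, adjusted p 0.00307 by edgeR), and 24 h over 6 h gave 0.06 ± 0.17 under IL and 0.01 ± 0.17 under IL_TNF, with overlapping libraries.

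Mcm10, which helps switch the loaded helicase on, came back furthest under TNF. It had 60.1, 51.4 and 61.1 CPM in TNF_24h and 8.58, 9.396 and 9.04 CPM in TNF_6h, against 48.9, 46.0 and 54.8 CPM in Ctrl_0h. The log2 fold change of TNF_24h over TNF_6h was 2.68 ± 0.40, the largest of the 38 in that comparison, and TNF_24h over Ctrl_0h gave 0.21 ± 0.37 (adjusted p 0.681 by edgeR), with libraries that overlapped. Under IL it had 16.2, 19.0 and 18.8 CPM in IL_24h and 2.50, 1.49 and 2.27 CPM in IL_6h, so it was at 36.1% of Ctrl_0h at 24 h. IL_24h over TNF_24h gave a log2 fold change of -1.68 ± 0.38, and each IL_24h library was below each TNF_24h library. The helicase partners Cdc45 and Gins1 stood at 37.3% and 27.6% of Ctrl_0h in IL_24h, and at 55.5% and 55.6% in TNF_24h. IL_24h over TNF_24h passed the test for Gins1 (log2 fold change -1.01 ± 0.20) and not for Cdc45 (-0.58 ± 0.32, adjusted p 0.126). Both were chosen after their values were seen.

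The 7 polymerase and primase genes fell in all 3 groups at 6 h, to medians of 22.9% of Ctrl_0h in IL_TNF_6h, 25.9% in IL_6h and 28.1% in TNF_6h. Pold1, the catalytic subunit of polymerase delta, had 32.7, 29.1 and 20.4 CPM in IL_TNF_6h, 39.7, 20.9 and 32.4 CPM in IL_6h and 50.8, 47.3 and 52.3 CPM in TNF_6h, against 175, 164 and 198 CPM in Ctrl_0h, and the 24 h means were 30.1%, 38.9% and 39.0% of Ctrl_0h in IL_TNF_24h, IL_24h and TNF_24h. Pola2, the accessory subunit of polymerase alpha, fell less, with 26.9, 23.5 and 19.4 CPM in IL_TNF_6h, 20.7, 13.1 and 19.1 CPM in IL_6h and 32.9, 32.1 and 33.6 CPM in TNF_6h, against 70.6, 63.6 and 70.2 CPM in Ctrl_0h. Its log2 fold changes were -1.55 ± 0.16, -1.95 ± 0.16 and -1.05 ± 0.16, and every treated library at 6 h and 24 h was below the untreated ones. At 24 h the medians of the 7 were 37.0% in IL_TNF_24h, 54.7% in IL_24h and 36.4% in TNF_24h. The catalytic subunit Pola1 was higher under IL than under TNF at both times: IL_6h over TNF_6h gave 1.26 ± 0.28 and IL_24h over TNF_24h gave 1.71 ± 0.27 on the log2 scale. In IL_24h Pola1 stood at 91.7% of Ctrl_0h and its libraries overlapped those of Ctrl_0h. Pole2, a subunit of polymerase epsilon, had 4.07, 3.50 and 4.01 CPM in TNF_24h and 4.42, 3.97 and 3.68 CPM in TNF_6h, a log2 fold change of -0.06 ± 0.20 (adjusted p 0.881 by edgeR), so no return was detected there in overlapping libraries, while IL_24h over IL_6h gave 0.92 ± 0.20. Prim2, the large primase subunit, fell least of these 7 in IL_TNF_6h, to 51.6% of Ctrl_0h.

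**Figure D3:**
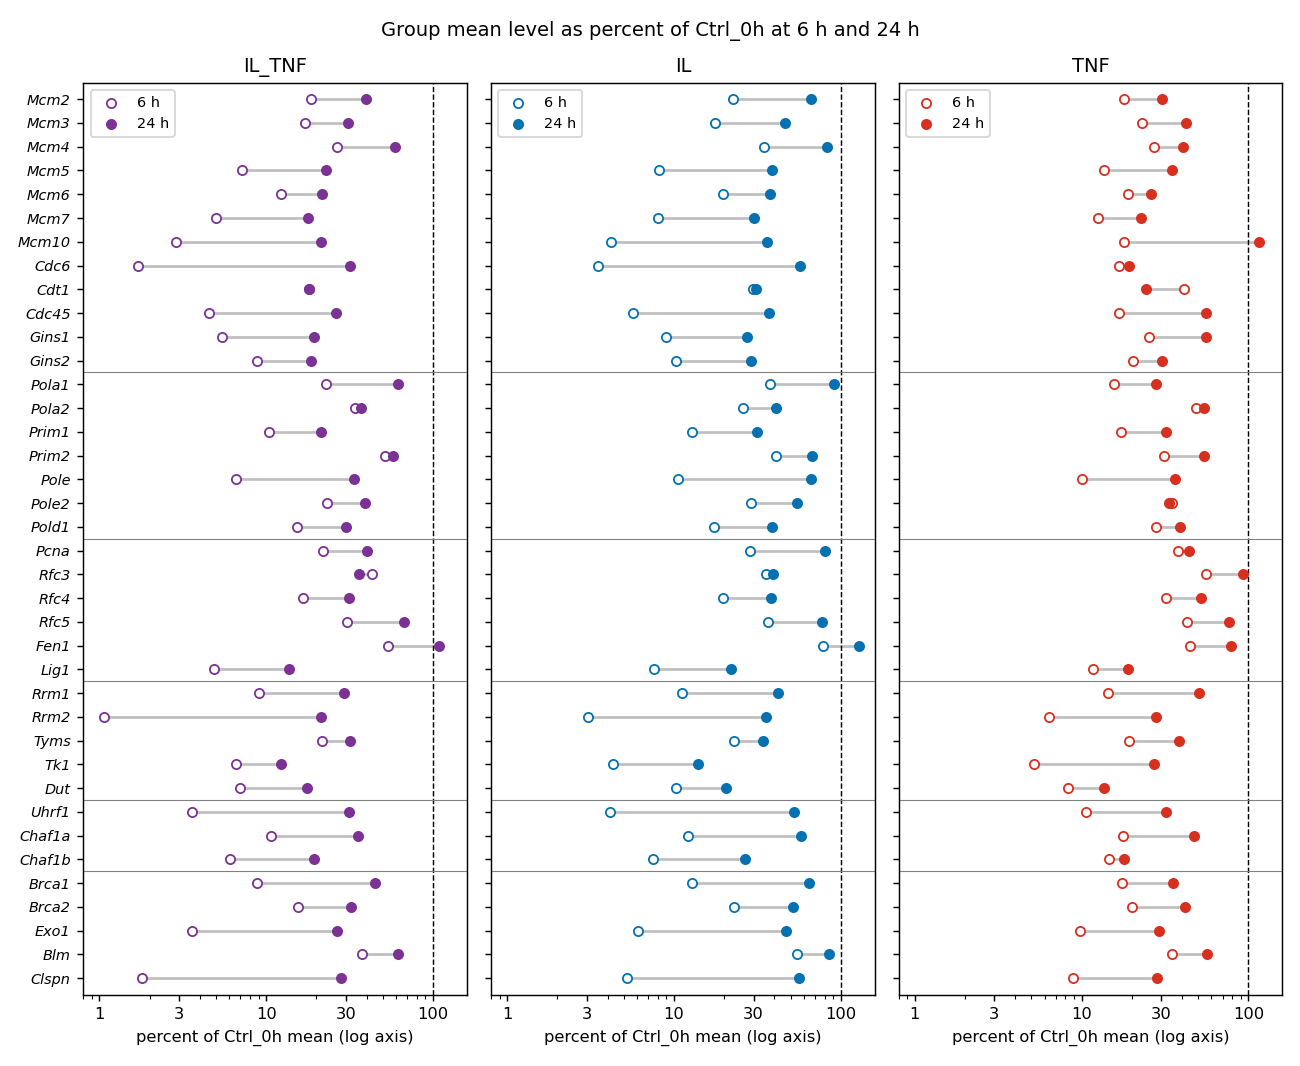
Mean level of each gene as a percentage of its Ctrl_0h mean (log axis) at 6 h (open circles) and at 24 h (filled circles) under each treatment, in 3 panels. A grey line joins both times of a gene and the dashed line marks 100%. Under IL nearly all genes move right between 6 h and 24 h, Cdt1 under TNF moves left, and Mcm10 under TNF ends at 115%.

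Of the 6 genes of the clamp, clamp loader and lagging strand, 5 fell in IL_6h and all 6 in IL_TNF_6h and TNF_6h. Pcna, the sliding clamp, had 147, 140.0 and 149 CPM in IL_TNF_6h, 190.1, 186 and 193 CPM in IL_6h and 244, 266 and 243 CPM in TNF_6h, against 703, 584 and 698 CPM in Ctrl_0h. Pcna then had 250.2, 264 and 284 CPM in IL_TNF_24h, 506, 536 and 555 CPM in IL_24h and 307, 301 and 269.6 CPM in TNF_24h at 24 h. Pcna stood at 80.5% of Ctrl_0h in IL_24h (log2 fold change over IL_6h 1.49 ± 0.10). The change in TNF_24h did not pass the test (0.22 ± 0.10 over TNF_6h, adjusted p 0.108 by edgeR). Replicate 1 of IL_TNF_24h was close to the other 2 for Pcna. The test of IL_24h against Ctrl_0h (log2 fold change -0.31 ± 0.10, adjusted p 0.00814) was lost with no filter on low counts and narrowly without IL_24h replicate 2 or Ctrl_0h replicate 1 (adjusted p 0.254, 0.0501 and 0.0501). Pcna has pseudogene copies, so its count may share reads with them.

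Lig1, the ligase that joins lagging strand fragments, fell under each treatment. It had 12.9, 11.4 and 10.9 CPM in IL_TNF_6h, 20.6, 14.4 and 19.9 CPM in IL_6h and 31.5, 26.6 and 26.3 CPM in TNF_6h, against 242, 229 and 252 CPM in Ctrl_0h, and at 24 h it stood at 13.6%, 22.0% and 19.0% of Ctrl_0h in IL_TNF_24h, IL_24h and TNF_24h. Its rise from 6 h to 24 h under TNF (log2 fold change 0.71 ± 0.24, adjusted p 0.0377 by edgeR) was lost when any 1 of the 6 libraries compared was left out. Fen1, the flap nuclease, was low throughout, at 1.45, 1.90 and 1.89 CPM in IL_TNF_6h, 2.56, 2.58 and 2.53 CPM in IL_6h and 1.27, 1.16 and 1.89 CPM in TNF_6h, against 3.26, 1.49 and 4.99 CPM in Ctrl_0h. Fen1 overlaps Tmem258 in the annotation, so its count may be altered by reads of that gene where the strand is not used. The untreated libraries of Fen1 ranged from below some 6 h libraries to above all of them. Its calls at 6 h in IL_TNF_6h (log2 fold change -0.89 ± 0.33) and TNF_6h (-1.17 ± 0.34) were lost without Ctrl_0h replicate 3 (adjusted p 0.235 and 0.0892). The first was also lost without IL_TNF_6h replicate 1 or 3 (0.084 and 0.0519), the second without TNF_6h replicate 2 (0.0528), and both in a fit of the compared groups alone (0.126 and 0.0835). The clamp loader subunit Rfc3 had 35.5, 29.5 and 26.6 CPM in TNF_24h and 17.6, 17.9 and 19.3 CPM in TNF_6h, against 35.1, 28.7 and 34.4 CPM in Ctrl_0h, and TNF_24h overlapped Ctrl_0h (log2 fold change -0.10 ± 0.12). Under IL it stayed low, with 11.7, 13.9 and 13.2 CPM in IL_24h and 11.9, 10.3 and 13.0 CPM in IL_6h, and IL_24h over TNF_24h gave -1.24 ± 0.13. The related subunits Rfc4 and Rfc5 were at 38.3% and 77.1% of Ctrl_0h in IL_24h, and at 52.3% and 77.0% in TNF_24h.

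The 5 nucleotide supply genes all fell at 6 h under every treatment and were all still lower at 24 h, although Rrm2 in IL_24h was no longer called without IL_24h replicate 1 or 3 (adjusted p 0.0516 and 0.0512 by edgeR) nor in IL_TNF_24h in a fit of the compared groups alone (0.0586). Rrm2, the small subunit of ribonucleotide reductase, fell furthest of the 38 in IL_TNF_6h and IL_6h. It had 1.08, 1.34 and 1.73 CPM in IL_TNF_6h, 3.69, 4.25 and 3.99 CPM in IL_6h and 8.75, 7.96 and 8.11 CPM in TNF_6h, against 138, 105 and 147 CPM in Ctrl_0h, which is 1.06%, 3.06% and 6.36% of the Ctrl_0h mean. The 24 h levels of Rrm2 were 2.17, 41.4 and 39.2 CPM in IL_TNF_24h, 44.8, 48.8 and 44.8 CPM in IL_24h and 38.4, 30.8 and 39.8 CPM in TNF_24h. The first IL_TNF_24h library was thus at a 6 h level while the other 2 lay just under those of IL_24h, and the group stood at 21.2% of Ctrl_0h with it and 31.0% without it. The large subunit Rrm1 had 17.3, 15.3 and 17.3 CPM in IL_TNF_6h, 20.6, 21.5 and 20.0 CPM in IL_6h and 24.4, 29.1 and 25.8 CPM in TNF_6h, against 188, 169.7 and 195 CPM in Ctrl_0h, and its fall was smaller than that of Rrm2 in each group (log2 fold changes -3.47 ± 0.24, -3.16 ± 0.24 and -2.80 ± 0.23 for Rrm1, and -6.54 ± 0.67, -5.03 ± 0.61 and -3.97 ± 0.58 for Rrm2). The difference between both genes was not tested.

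Tk1, the thymidine kinase of the salvage pathway, had 20.8, 20.4 and 15.2 CPM in IL_TNF_6h, 12.7, 10.3 and 14.0 CPM in IL_6h and 14.1, 16.3 and 14.1 CPM in TNF_6h, against 273, 289.5 and 296 CPM in Ctrl_0h. It was the gene that fell most in TNF_6h, with a log2 fold change of -4.27 ± 0.25. In the 24 h libraries it had 19.6, 43.4 and 41.6 CPM in IL_TNF_24h, 36.2, 40.9 and 42.4 CPM in IL_24h and 99.5, 66.8 and 65.8 CPM in TNF_24h, and each IL_24h library was below each TNF_24h library (log2 fold change of IL_24h over TNF_24h -0.96 ± 0.22). Tk1 overlaps Afmid in the annotation, and reads of overlapping genes cannot be told apart without the strand. Dut, which breaks down dUTP, stayed low in every group, at 17.6% of Ctrl_0h in IL_TNF_24h, 20.5% in IL_24h and 13.7% in TNF_24h. Tyms, thymidylate synthase, stood at 31.6%, 34.2% and 38.4% in these groups, and it has a pseudogene copy.

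Chromatin copying genes fell together at 6 h, all 3 in each group. Uhrf1, which brings the maintenance methyltransferase to newly copied DNA, had 4.55, 3.94 and 4.89 CPM in IL_TNF_6h, 4.82, 4.85 and 5.66 CPM in IL_6h and 11.7, 12.6 and 15.1 CPM in TNF_6h, against 136, 88.7 and 146 CPM in Ctrl_0h. Uhrf1 at 24 h had 7.23, 56.1 and 53.2 CPM in IL_TNF_24h, 60.4, 69.6 and 65.1 CPM in IL_24h and 40.7, 31.3 and 46.6 CPM in TNF_24h. The IL_24h libraries lay below all untreated ones, but the test against Ctrl_0h missed the threshold (log2 fold change -0.93 ± 0.41, adjusted p 0.0547 by edgeR) and passed it without Ctrl_0h replicate 2 (adjusted p 0.0341). Of the subunits of chromatin assembly factor 1, which puts histones on new DNA, Chaf1a stood at 35.6%, 57.9% and 47.0% of Ctrl_0h in IL_TNF_24h, IL_24h and TNF_24h, and Chaf1b at 19.2%, 26.7% and 18.04%.

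The 5 fork repair and checkpoint genes fell at 6 h in all 3 groups, and in IL_24h 3 of them (Brca1, Blm and Clspn) were no longer called against Ctrl_0h. For Brca1 and Clspn every IL_24h library was still below every untreated one. Both were called without Ctrl_0h replicate 2, IL_TNF_24h replicate 1 and TNF_6h replicate 3 together (adjusted p 0.000842 and 0.000492 by edgeR). Clspn, the claspin adaptor of the replication checkpoint, had 0.854, 0.414 and 0.839 CPM in IL_TNF_6h, 1.83, 2.58 and 1.75 CPM in IL_6h and 3.45, 4.03 and 2.99 CPM in TNF_6h, against 43.9, 30.3 and 43.3 CPM in Ctrl_0h. By 24 h claspin RNA was at 1.63, 16.2 and 14.9 CPM in IL_TNF_24h, 20.1, 22.9 and 23.0 CPM in IL_24h and 11.2, 8.33 and 13.9 CPM in TNF_24h, again with the first IL_TNF_24h library at the level of 6 h. Brca1, of homologous recombination, had 2.25, 2.46 and 2.52 CPM in IL_TNF_6h, 2.76, 3.89 and 3.88 CPM in IL_6h and 3.99, 5.61 and 4.78 CPM in TNF_6h, against 28.9, 22.2 and 30.8 CPM in Ctrl_0h. The 24 h means of Brca1 were 44.6%, 64.1% and 35.1% of Ctrl_0h in IL_TNF_24h, IL_24h and TNF_24h. Of this role the Bloom helicase gene Blm fell least at 6 h, to 37.3%, 54.8% and 35.1% in IL_TNF_6h, IL_6h and TNF_6h.

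**Figure D4:**
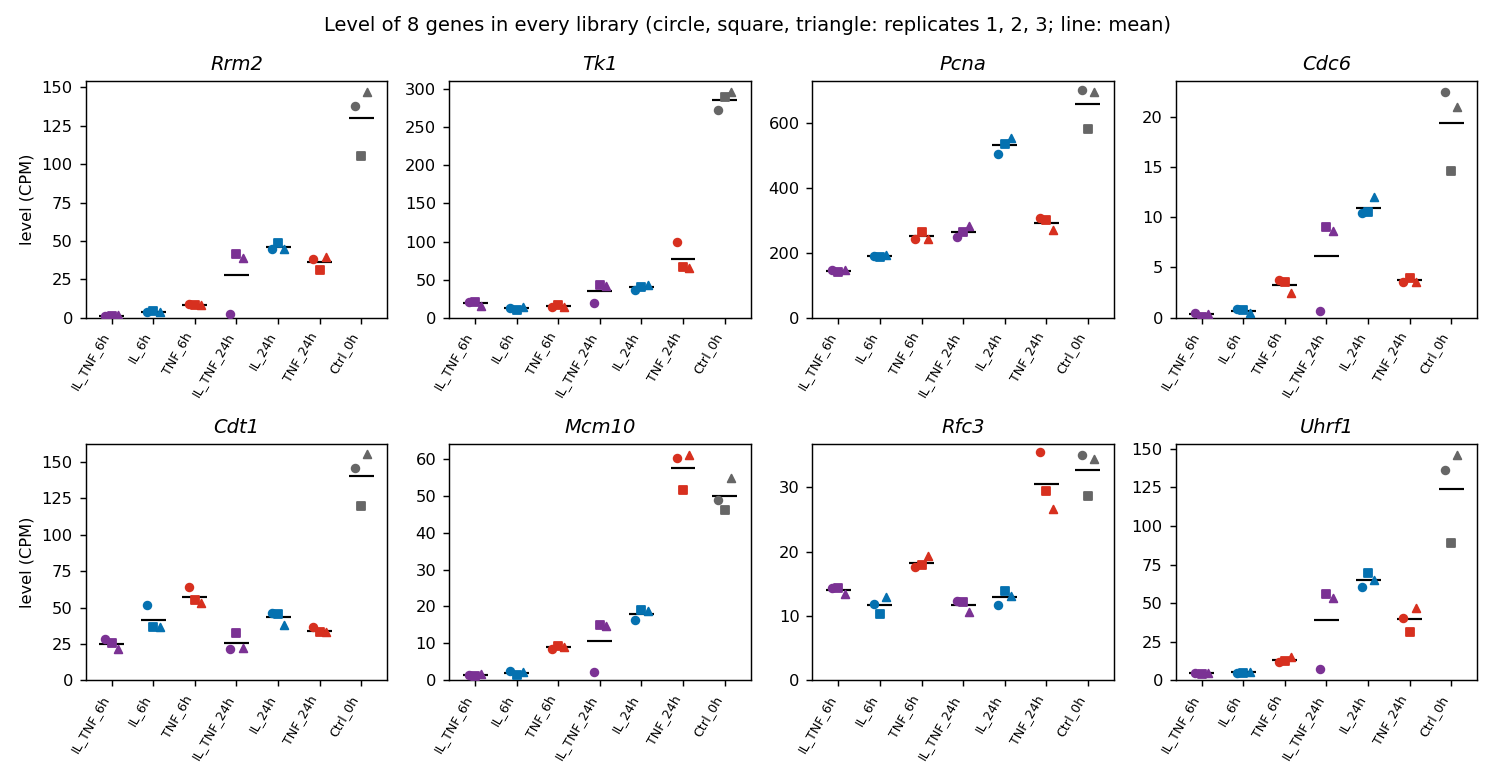
Level in CPM (vertical axis, from 0) of 8 genes in every library, with the 6 treated groups and then Ctrl_0h along the horizontal axis. Points are libraries, marker shapes are replicates and lines are means. Mcm10 and Rfc3 in TNF_24h overlap the untreated libraries, Cdt1 in TNF_24h lies below TNF_6h, and replicate 1 of IL_TNF_24h lies near the 6 h groups for Rrm2, Cdc6, Mcm10 and Uhrf1.

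Under IL the 6 h and 24 h libraries are of unlike sex and under TNF they are not, so library set and cytokine cannot be told apart here. The return differed between IL and TNF for 7 of the 38 genes when the difference itself was tested, as the change from 6 h to 24 h under IL minus that under TNF. It was larger under IL for Cdc6, Uhrf1, Chaf1b, Pcna, Pole2 and Cdt1 (6 genes, where 10.9% of all genes were called higher), with differences from 3.80 for Cdc6 to 0.80 for Cdt1 on the log2 scale. It was smaller under IL for Rfc3, at -0.60 ± 0.18 (1 gene, where 11.6% of all genes were called lower). The share of the 38 called higher is little above that of all genes, and the share called lower is below it. The median of the 38 was 0.68, beside -0.03 for all genes. For 31 genes the difference did not pass the test, which does not show that they returned alike. Calls of Cdc6, Chaf1b and Pcna were kept with each library left out. That of Uhrf1 was lost without TNF_24h replicate 2, that of Rfc3 without IL_6h replicate 3, TNF_6h replicate 1, IL_24h replicate 1 or TNF_24h replicate 1, and that of Cdt1 without IL_6h replicate 2 or 3, TNF_6h replicate 1, IL_24h replicate 1 or 2 or TNF_24h replicate 2. The count was 21 without Ctrl_0h replicate 2, IL_TNF_24h replicate 1 and TNF_6h replicate 3 together.

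At one time the IL and TNF groups differed for part of the set. At 6 h, 15 genes were lower in IL_6h than in TNF_6h (27.1% of all genes) and 3 were higher, Blm, Fen1 and Pola1 (30.2% of all genes). At 24 h, 5 were lower in IL_24h than in TNF_24h (27.9% of all genes), namely Mcm10, Gins1, Pola2, Rfc3 and Tk1, and 11 were higher (30.1% of all genes), among them Pola1, Cdc6 and Pcna with log2 fold changes of 1.71, 1.56 and 0.86. The share higher is near that of all genes and the share lower is below it. Pola2 was not called without IL_24h replicate 1 or 2 or TNF_24h replicate 1 or 3, nor Cdc6 without TNF_24h replicate 1. Without Ctrl_0h replicate 2, IL_TNF_24h replicate 1 and TNF_6h replicate 3 together, the counts of calls were 31 at 6 h and 27 at 24 h, in place of 18 and 16. Between IL_TNF_6h and TNF_6h, 26 genes were lower with IL present (27.5% of all genes) and 1, Prim2, was higher (29.7% of all genes; log2 fold change 0.74 ± 0.18). Between IL_TNF_24h and TNF_24h, 11 were lower (27.1% of all genes) and 2, Mcm4 and Pola1, were higher (29.2% of all genes), and the share lower was near that of all genes. Without IL_TNF_24h replicate 1, 8 were lower and 7 higher.

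With TNF added to IL, few genes passed the test singly while most values were lower. The median log2 fold change of the 38 was -0.36 for IL_TNF_6h over IL_6h and -0.57 for IL_TNF_24h over IL_24h, beside -0.01 and 0.00 for all genes. For 16 genes at 6 h every IL_TNF library was below every IL library, with 3 genes the other way. At 24 h this held for 25 genes, with 0 the other way. How many of all genes separate in this manner was not counted, so nothing is read from these counts. At 24 h all 38 fold changes were below 0, the nearest to 0 at -0.11, with IL_TNF_24h replicate 1 included, which stood low for most genes. Against IL_6h, 5 were lower in IL_TNF_6h (6.98% of all genes) and none higher (7.09% of all genes), with log2 fold changes for Cdt1 of -0.73 ± 0.17, Gins1 of -0.71 ± 0.23, Mcm6 of -0.67 ± 0.17, Dut of -0.57 ± 0.17 and Pcna of -0.39 ± 0.10. That count was 2 without IL_6h replicate 1 or 2 or IL_TNF_6h replicate 2, 3 without IL_6h replicate 3 or IL_TNF_6h replicate 1, and 15 without Ctrl_0h replicate 2, IL_TNF_24h replicate 1 and TNF_6h replicate 3 together. The call of Dut was lost without any 1 of the 6 libraries, that of Gins1 without any but IL_TNF_6h replicate 2, that of Mcm6 without IL_6h replicate 2 or IL_TNF_6h replicate 2, that of Pcna without IL_TNF_6h replicate 2, and that of Cdt1 without IL_6h replicate 1. Against IL_24h, 3 were lower in IL_TNF_24h (5.08% of all genes) and none higher (6.03% of all genes), with log2 fold changes for Pcna of -1.001 ± 0.10, Mcm6 of -0.79 ± 0.17 and Cdt1 of -0.77 ± 0.17. The count was also 3 without IL_TNF_24h replicate 1 and was 6 without IL_TNF_24h replicate 2. Pcna in IL_TNF_24h stayed near the TNF_24h level, below IL_24h in every library. The change from 6 h to 24 h differed between IL_TNF and IL for 1 gene, Pcna, at -0.62 ± 0.14 (1.78% of all genes were called lower). Rrm2 joined it without IL_TNF_24h replicate 1, with a difference of 1.32 (adjusted p 0.0015 by edgeR). The 6 h and 24 h libraries are of different sets here, so time and set cannot be told apart.

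The log2 fold change with TNF at 6 h was not the same beside IL as without it. The effect of TNF with IL is taken within the libraries that had Ifi202b counts, which may come from other mice. The effect without IL is taken in libraries with none, against cells at 0 h. The presence of IL, any difference in mice and the time in culture cannot be told apart in this contrast. The 38 genes already summed to 16.4% of the Ctrl_0h mean in IL_6h, which enters the contrast. Whether little room was left for a further fall with TNF was not tested. The interaction, that is the effect of TNF with IL present minus the effect of TNF on its own against Ctrl_0h, was above 0 and called for 34 of 38 genes (9.27% of all genes were called higher) and below 0 and called for none (9.13% of all genes). Its median was 1.99, beside -0.0029 for all genes. Among the called genes it ran from 0.96 for Blm, whose call was lost in 9 of 12 fits with 1 library left out, to 4.88 for Tk1. For Tk1 the log2 fold change with TNF was 0.61 ± 0.23 on top of IL, where it did not pass the test, and -4.27 ± 0.25 without IL. At 24 h the interaction was called for 15 genes (11.6% of all genes), and below 0 for none (12.5% of all genes), with a median of 0.86 beside 0.08 for all genes and the largest called value for Dut, 2.65 ± 0.24. That count was 29 without IL_TNF_24h replicate 1, 9 without IL_24h replicate 2, and 8 without any 1 of IL_24h replicate 1, TNF_24h replicate 2 and IL_TNF_24h replicates 2 and 3.

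Other genes of the same pathways, from 4 written lists of 75 genes, were counted in the same fits. Of 38 other licensing and fork genes, 33 fell in IL_TNF_6h (33.4% of all genes were lower), 32 in IL_6h (31.6%) and 32 in TNF_6h (20.5%). At 24 h 28 were lower in IL_TNF_24h (32.3% of all genes), 26 in IL_24h (32.6%) and 30 in TNF_24h (24.4%). In these groups 5, 5 and 4 were higher, where 33.0%, 31.7% and 20.9% of all genes were. Their median log2 fold changes at 6 h were -1.95, -1.77 and -1.29. Geminin (Gmnn), the inhibitor of Cdt1, had 6.97, 6.57 and 6.74 CPM in IL_TNF_6h, 16.9, 11.95 and 15.4 CPM in IL_6h and 32.5, 34.1 and 35.5 CPM in TNF_6h, against 124, 145 and 125 CPM in Ctrl_0h. A few licensing genes went the other way: Orc2, Orc3 and Orc4, subunits of the origin recognition complex, were higher in IL_TNF_6h and IL_6h, and Orc4 also in TNF_6h. These were the only ones of the 38 called higher at 6 h (3, 3 and 1), below the shares of all genes (33.8%, 32.8% and 18.8%). Orc4 had 16.8, 18.4 and 24.0 CPM in IL_TNF_6h, 15.2, 25.2 and 18.6 CPM in IL_6h and 13.2, 12.6 and 12.2 CPM in TNF_6h, against 9.57, 8.11 and 7.47 CPM in Ctrl_0h, with log2 fold changes of 1.23 ± 0.16, 1.23 ± 0.16 and 0.59 ± 0.16. Of 15 other fork repair genes, 14 fell in IL_TNF_6h, 15 in IL_6h and 15 in TNF_6h, beside the same shares of all genes. Of these 15 genes, 10 were lower in IL_TNF_24h, 8 in IL_24h and 9 in TNF_24h, where 32.3%, 32.6% and 24.4% of all genes were. Of 18 other nucleotide synthesis genes, 11, 10 and 13 were lower and 5, 5 and 2 higher in IL_TNF_6h, IL_6h and TNF_6h, where the shares of all genes lower and higher were 33.4% and 33.8%, 31.6% and 32.8%, and 20.5% and 18.8%. The shares of this list that were higher are at or below those of all genes.

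The last list held 4 genes that handle deoxynucleotides outside S phase, of which 2, 1 and 0 were lower and 2, 2 and 1 higher in IL_TNF_6h, IL_6h and TNF_6h. At 24 h 2, 1 and 1 were lower and 2, 2 and 1 higher. With so few genes and between 18.8% and 33.8% of all genes called in each direction, nothing is read from these counts as a list. Samhd1, the hydrolase that lowers the deoxynucleotide pool in resting macrophages, had 617, 629 and 661 CPM in IL_TNF_6h, 467, 496 and 451 CPM in IL_6h and 949.7, 919 and 899.6 CPM in TNF_6h, against 305, 251 and 304 CPM in Ctrl_0h. Samhd1 at 24 h had 1011, 768 and 725 CPM in IL_TNF_24h, 553, 543 and 526 CPM in IL_24h and 1224, 1434 and 1309.5 CPM in TNF_24h. It was higher than in Ctrl_0h in all 6 treated groups, with log2 fold changes from 0.72 ± 0.12 in IL_6h to 2.21 ± 0.12 in TNF_24h, and no treated library overlapped an untreated one. Rrm2b, the reductase subunit used outside S phase, was higher in the 4 groups with IL, with a log2 fold change of 1.23 ± 0.18 in IL_TNF_6h and 1.10 ± 0.18 in IL_6h, and did not pass the test in TNF_6h (0.35 ± 0.18, adjusted p 0.138 by edgeR). The mitochondrial thymidine kinase Tk2 was lower in 5 of the 6 treated groups, all but TNF_6h, and the mitochondrial kinase Dguok was lower in IL_TNF_6h and IL_TNF_24h.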

How the data were processed

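The authors deposited read counts per Ensembl gene ID as whole numbers, not normalized, in 1 table of 47069 IDs and 21 libraries. The submitters' processing notes name GRCm38, edgeR 3.28.1, Subread 1.6.3 with featureCounts, and TopHat2 2.0.12, with no annotation, strand setting or treatment of read pairs. Among low values, 2 (30373 times) was more frequent than 1 (17808 times), so mates may be counted apart and counting precision may be lower than the counts imply. Libraries held 28.1 to 48.7 M counts (M, 1e6). Symbols came from gene name tables (32832 IDs matched), and positions from RefSeq on GRCm38.p6. Without the strand, reads of the 9 members that overlap a protein-coding gene can be shared with it. These are Mcm7, Cdc45, Gins2, Pole2, Rfc4, Fen1, Lig1, Tk1 and Chaf1a.

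From the deposited counts, R 4.3.3 with edgeR 4.0.16 was used to filter by filterByExpr (15581 genes left, common biological coefficient of variation 22.8%), scale by TMM, fit 1 model over 21 libraries with a term per group and test 19 contrasts by the quasi-likelihood F test, with Benjamini-Hochberg adjustment over all genes at 0.05. The standard error is the size of the log2 fold change divided by the root of F. Per-library values are given for the 2 genes of each role with the highest mean CPM (1 for chromatin copying) and for those with the largest and smallest change in the 6 h and 24 h over 6 h contrasts; genes named beyond these were chosen after their values were seen. The members and gene lists were chosen with earlier results of these data known. Alternatives were DESeq2 1.42.0 size factors and Wald test, no filter, a filter of 1 CPM in 3 libraries, the compared groups alone, a replicate block, each library left out, and 3 libraries left out together. TNF_6h replicate 3, among those 3, did not stand apart in the sum of the 38 genes (798 CPM, against 809 and 830.4 CPM). No reason for leaving it out is recorded. On simulated counts for IL_6h against Ctrl_0h over 15327 genes, the fit called 82 of 100 genes altered 2-fold and 91 of 100 altered 4-fold. Of its 181 calls, 8 were false. No other gene was altered there, and the altered genes had at least 1 CPM in Ctrl_0h. In the data 4926 of 15581 genes were called lower and 5117 higher in this contrast, so these rates need not hold for the data. No duplicate libraries were found.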

Additional observations from a re-analysis of the deposited data

Results flagged for a closer look

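For 8 results the difference between treatments in the change from 6 h to 24 h was itself past the threshold in edgeR's quasi-likelihood test (adjusted over 15581 genes). In the change under IL minus that under TNF, these were Cdc6 (3.80 on the log2 scale, adjusted p 0.00155), Uhrf1 (2.08, 0.0171), Chaf1b (1.53, 0.000921), Pcna (1.27, 1.44e-06), Pole2 (0.98, 0.0173), Cdt1 (0.80, 0.0207) and Rfc3 (-0.60, 0.0194). In the change under IL_TNF minus that under IL it was Pcna (-0.62, 0.0125). Of all genes, 10.9% were called higher and 11.6% lower for IL minus TNF, and 1.78% lower for IL_TNF minus IL. The counts of members called are thus not far from those shares. Leaving out 1 library ended the call for Cdt1 (6 of the 12 libraries compared, adjusted p up to 0.0674), for Rfc3 (4 of them, up to 0.0654) and for Uhrf1 (TNF_24h replicate 2, adjusted p 0.052), and with no filter on low counts the calls of Pole2 (0.0655), Rfc3 (0.116) and Pcna in IL_TNF against IL (0.262) were lost. The IL minus TNF difference crosses the sets of libraries that differ in Xist and Ifi202b, so the set and the cytokine cannot be told apart in it. For Pcna in IL_TNF against IL, each time is compared within a set. The 6 h and 24 h libraries are of different sets, however, so time and set cannot be told apart in that difference.

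The log2 fold change with TNF also differed between cells with and without IL. At 24 h these cells are of unlike sex, so IL and the library set cannot be told apart. At 6 h they differ in Ifi202b and may come from other mice, which cannot be told apart from IL either. At 6 h the difference was called for 34 genes, and Tk1 was highest at 4.88. After 24 h it was called for 15 genes, and Dut was highest at 2.65. Both compare TNF groups with Ctrl_0h at 0 h.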

How the results depend on the processing

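No call of the 38 genes changed its direction: 448 calls were followed over 6166 values under other settings, of which 5839 stayed past the threshold in the same direction and 327 missed it. The counts of members called against Ctrl_0h ranged from 37 to 38 at 6 h over the libraries left out. At 24 h these counts ranged from 35 to 37 in IL_TNF_24h, 25 to 30 in IL_24h and 33 to 36 in TNF_24h. Over the other settings the 24 h counts ranged from 29 to 37, 29 to 35 and 34 to 36 in these groups. The order of the groups by count at 24 h thus depends on the setting. With 1 library left out the count was 16 to 25 for TNF_24h against TNF_6h (27 with all), 2 to 5 for IL_TNF_6h against IL_6h (5), 3 to 6 for IL_TNF_24h against IL_24h (3), 8 to 29 for the interaction at 24 h (15), 1 to 2 for the IL_TNF minus IL return (1) and 5 to 10 for the IL minus TNF return (7). With no filter the counts were 12 for IL_TNF_6h against IL_6h, 17 for IL_TNF_24h against IL_24h, 23 for the interaction at 24 h and 19 for the IL minus TNF return. A fit of the compared groups alone gave 8 for IL_TNF_6h against IL_6h, 7 for IL_TNF_24h against TNF_24h (13), 28 for IL_24h against TNF_24h (16) and 24 for the IL minus TNF return. Without Ctrl_0h replicate 2, IL_TNF_24h replicate 1 and TNF_6h replicate 3 together they were 15 for IL_TNF_6h against IL_6h, 31 for IL_6h against TNF_6h (18), 27 for IL_24h against TNF_24h, 30 for the interaction at 24 h, 2 for the IL_TNF minus IL return and 21 for the IL minus TNF return. The DESeq2 Wald test gave 6 for IL_TNF_24h against IL_24h. The cause of these shifts was not tested. The replicate numbers did not pair the libraries: 63 pairs with the same number correlated at -0.31 to 0.363, with 6 over 0.1, and 7 of 21 libraries were closest to their own number. With the replicate block the counts of members called against Ctrl_0h were 37, 38, 38, 29, 35 and 37 for IL_6h, TNF_6h, IL_TNF_6h, IL_24h, TNF_24h and IL_TNF_24h, no count moved by over 1.5 times, and Lig1 in TNF_24h against TNF_6h (adjusted p 0.0501), Rrm2 in the interaction at 6 h (0.0523) and Mcm2 in that at 24 h (0.0524) missed the threshold. Depth limits Cdc6, Exo1 and Clspn at 6 h most, where the lowest library, IL_TNF_6h replicate 2, held 4, 16 and 17 counts.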

Other observations

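Some pathway genes beside the 38 took other courses, and those named were chosen after their values were seen. Dna2, a nuclease and helicase that trims flaps and stalled forks, fell at 6 h and then rose above the untreated level with IL and not with TNF. It had 6.604, 5.06 and 6.55 CPM in IL_TNF_6h, 14.5, 14.7 and 14.4 CPM in IL_6h and 8.78, 9.49 and 8.59 CPM in TNF_6h, against 22.5, 18.4 and 22.8 CPM in Ctrl_0h. Dna2 at 24 h had 39.5, 70.4 and 69.1 CPM in IL_TNF_24h, 64.0, 61.5 and 59.2 CPM in IL_24h and 7.29, 6.79 and 7.65 CPM in TNF_24h, with log2 fold changes against Ctrl_0h of 1.49 ± 0.17, 1.53 ± 0.17 and -1.55 ± 0.17. The IL_24h and IL_TNF_24h libraries are also the set with little Xist, and this set and IL at 24 h cannot be told apart. Ung, the glycosylase that removes uracil from DNA, had 8.94, 9.23 and 9.70 CPM in IL_24h and 2.43, 1.62 and 2.18 CPM in IL_6h, and 1.15, 1.09 and 1.22 CPM in TNF_24h and 2.78, 2.00 and 2.17 CPM in TNF_6h, against 19.0, 20.6 and 21.01 CPM in Ctrl_0h. The return in IL_24h was partial, since the log2 fold change was 2.16 ± 0.27 over IL_6h and -1.12 ± 0.26 over Ctrl_0h, both called, and TNF_24h was lower than TNF_6h (-0.999 ± 0.30).

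Atic, of the last steps of purine synthesis, had 84.5, 75.9 and 76.0 CPM in IL_TNF_6h, 93.9, 90.9 and 99.6 CPM in IL_6h and 33.8, 36.1 and 35.2 CPM in TNF_6h, against 43.3, 23.4 and 42.8 CPM in Ctrl_0h, and rose with IL (log2 fold changes 1.11 ± 0.18 and 1.37 ± 0.18) but did not pass the test in TNF_6h (-0.06 ± 0.18). Dck, the deoxycytidine kinase of the salvage pathway, rose most in TNF_24h, with 160.1, 199 and 241 CPM, against 73.1, 47.7 and 78.4 CPM in Ctrl_0h, and the first IL_TNF_24h library stood above the other 2 for Dck (166, 80.7 and 85.7 CPM) where it stood below them for most replication genes.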
